A study of Homo sapiens with 12 samples.

Results

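The effect of the splicing modulator H3B-8800 was measured in MEC1 cells with wild-type (WT) SF3B1, an established line of human leukemic B cells (chronic lymphocytic leukemia). Of 721551 splicing events in the deposited table, the comparison holds the 321823 that had at least 20 inclusion plus exclusion reads in all 6 WT samples: 105873 exons, 89311 introns, 75039 alternative 3' splice sites and 51600 alternative 5' splice sites. In their lowest sample 11136 of these had fewer than 5 reads above that limit, and 12526 further events missed it by at most 5 reads. Each sample treated for 6 h with 75 nM H3B-8800 was paired with the DMSO (vehicle) sample of the same name suffix, called a culture here. Cultures a and b carried SF3B1 labelled WT with no edit, whereas culture 34b was labelled WT with the base change c.2106G>A, so 1 of the 3 pairs differs from the others in its labelled genotype. A further 6 samples of the series, used in 1 comparison below, carried SF3B1 K700E (c.2098A>G together with c.2106G>A) in DMSO or the same dose. All 12 samples came from a single cell line, and the labels do not say whether a and b were grown separately, so the p-values describe the spread between these samples.

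SF3B1 is the largest protein of the SF3B complex, the part of the U2 particle that holds the branch point adenosine of an intron while the 3' splice site is chosen. H3B-8800 binds SF3B where the branch point fits. When an internal exon is not recognised it can be skipped, and when an intron is not removed it stays in the polyadenylated RNA. Both outcomes were read here from the same libraries as the level of an event: the percent of its reads that include the exon, retain the intron or use the site.

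Short introns show the range of responses within a narrow length. Among 2222 tested introns of up to 200 nt between coding exons whose sequence could be read from a GENCODE transcript, 1207 were retained more with H3B-8800. A sequence was at hand only where an annotated transcript keeps the intron within an exon, so this set is selected. Of all tested introns 32.4% were retained more. By length the share was 47.2% up to 100 nt, 47.5% above 100 and up to 150 nt, and 49.0% above 150 and up to 250 nt. Of the 2222 introns, the 5 with the largest rise, 1 per gene, are printed from GENCODE release 29 transcripts (GRCh38). They run 5' to 3' on the strand of the gene, with the first and last 2 bases in capitals.
DDX51 intron: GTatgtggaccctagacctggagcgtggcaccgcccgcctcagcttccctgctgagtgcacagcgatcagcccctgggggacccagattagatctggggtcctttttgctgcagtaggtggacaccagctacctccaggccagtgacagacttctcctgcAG
MCOLN1 intron: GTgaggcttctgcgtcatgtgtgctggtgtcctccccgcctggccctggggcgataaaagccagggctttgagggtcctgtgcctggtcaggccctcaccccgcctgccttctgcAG
RELB intron: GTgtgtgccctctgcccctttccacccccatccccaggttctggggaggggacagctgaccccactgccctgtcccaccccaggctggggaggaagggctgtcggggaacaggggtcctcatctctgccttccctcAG
SMTN intron: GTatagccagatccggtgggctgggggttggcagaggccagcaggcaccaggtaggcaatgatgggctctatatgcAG
RHBDF2 intron: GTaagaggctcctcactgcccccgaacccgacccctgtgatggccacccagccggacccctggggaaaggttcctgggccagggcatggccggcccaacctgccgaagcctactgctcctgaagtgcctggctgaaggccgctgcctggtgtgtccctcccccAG

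The DDX51 intron (chr12:132141957-132142118, minus strand) lies in the gene of a DEAD-box RNA helicase and was retained at 7.77%, 15% and 12.03% in DMSO and at 84.57%, 89.25% and 94.73% in H3B-8800. The MCOLN1 intron (chr19:7528704-7528820, plus strand), in the gene of a lysosomal ion channel, stood at 7.19%, 12.16% and 9.46% in DMSO and at 82.75%, 86.67% and 87.69% in H3B-8800. The RELB intron (chr19:45034313-45034450, plus strand), in the gene of an NF-kappaB subunit, stood at 1.89%, 5.08% and 4.57% against 74.4%, 82.66% and 78.78%. In these 3 introns every treated sample lay far above every DMSO sample. The SMTN intron (chr22:31095456-31095533, plus strand) rose by 74.69 points and the RHBDF2 intron (chr17:76472840-76473004, minus strand) by 74.53 points. These 5 were picked by size, so their rise is a description.

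At the other end, 4 of the 5 introns of the same kind that moved least in any pair, among 777 with a DMSO level of at least 2% and at least 200 reads in every sample, are printed for comparison.
RPLP0 intron: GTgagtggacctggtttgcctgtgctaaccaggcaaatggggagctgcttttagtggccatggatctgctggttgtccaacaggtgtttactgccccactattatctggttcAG
IMPDH2 intron: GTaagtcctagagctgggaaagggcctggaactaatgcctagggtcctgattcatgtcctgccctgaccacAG
UBL5 intron: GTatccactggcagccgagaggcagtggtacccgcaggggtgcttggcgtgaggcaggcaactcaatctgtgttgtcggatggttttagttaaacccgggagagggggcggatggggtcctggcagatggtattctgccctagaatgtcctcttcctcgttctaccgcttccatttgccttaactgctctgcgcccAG
TROAP intron: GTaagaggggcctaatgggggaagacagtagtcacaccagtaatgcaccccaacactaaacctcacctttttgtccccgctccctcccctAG

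The RPLP0 intron (chr12:120198740-120198853, minus strand), in the gene of a ribosomal stalk protein, was retained at 2.15%, 2.53% and 2.04% in DMSO and at 1.97%, 2.37% and 2.14% in H3B-8800, with at least 42901 reads in each sample. The IMPDH2 intron (chr3:49026887-49026959, minus strand), in the gene of a guanine nucleotide synthesis enzyme, had a mean of 2.38% ± 0.43 in DMSO and 2.07% ± 0.29 in H3B-8800 (SD, n = 3 each). The UBL5 intron (chr19:9828394-9828591, plus strand) changed by 0.20 points and the TROAP intron (chr12:49323753-49323844, plus strand) by -0.28 points. In these 4 the samples of both groups overlapped, and none was called. They were picked for their small change, which is likewise a description. All 9 printed introns begin with GT and end with AG. The median GC content was 61.16% in the short introns with a sequence that were retained more and 58.61% in those not called.

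The depth was similar in all 6 samples, with 47813064 to 56676172 spliced reads over annotated introns. The median read number of an event was 265 to 298 in DMSO and lower, at 189 to 205, in H3B-8800. Gene levels are given as RPM, a gene's spliced reads scaled to the total of the sample. All 8 B cell markers were read at 1 RPM or more, with a summed level of 3620 to 4940 RPM in DMSO and 3970 to 5020 in H3B-8800. Of 7 T and NK cell markers 1, GNLY, reached 1 RPM, and CD3D, CD3G, CD4 and CD8A were under 0.1 RPM. Their summed level was 9.42 to 32.1 RPM in DMSO and 8.85 to 36.2 in H3B-8800. In the longer list of 17 such genes TRAC stood at 13.9 to 20.7 RPM in DMSO and PRF1 at 8.96 to 15.5. None of 6 myeloid markers reached 1 RPM, and 2 of 7 fibroblast and epithelial markers did, COL1A1 and CDH1. In the longer list of 12 such genes KRT8 stood at 7.1 to 8.13 RPM in DMSO and VIM at 36.0 to 56.1. The part of such genes in the results was not tested.

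Mean exon inclusion was lower and mean intron retention higher with H3B-8800 in all 3 pairs. Over all 105873 exons with enough reads, the mean inclusion level was 77.89%, 77.93% and 77.92% in DMSO and 71.48%, 71.84% and 71.61% in H3B-8800, a difference of -6.27 points. Introns with unbalanced junction reads at their ends in more than 3 of the 6 samples were left out. Over the 78991 kept, mean retention was 2.3%, 2.84% and 2.94% in DMSO and 8.2%, 9.21% and 9.53% in H3B-8800, a difference of 6.29 points. The treated and DMSO samples did not overlap in either measure. With 3 samples against 3, the exact two-sided permutation test gave p = 0.1 for each, the smallest it allows. Of all reads at annotated introns, the unspliced share was 1.86%, 2.33% and 2.43% in DMSO and 4.5%, 5.47% and 5.71% in H3B-8800.

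**Figure D1:**
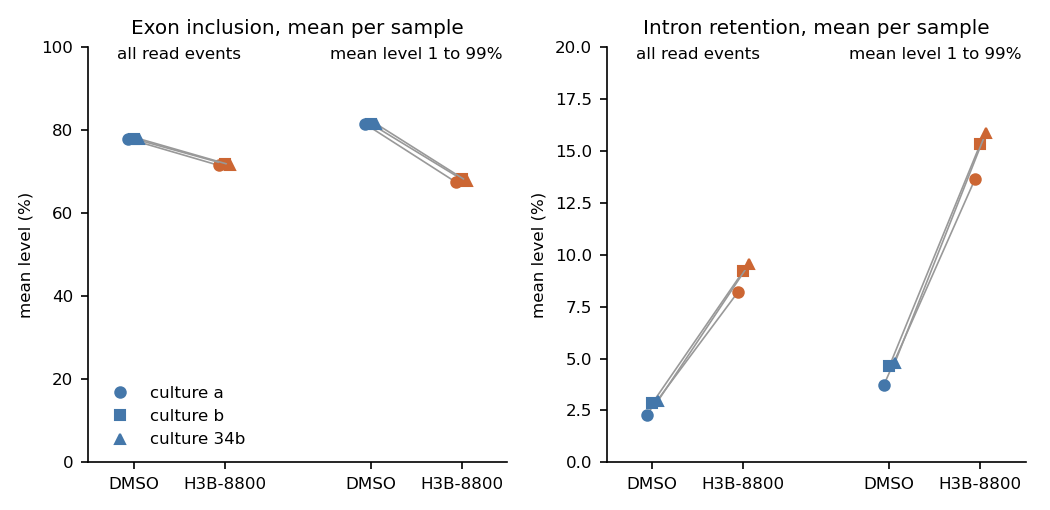
Mean exon inclusion (left) and intron retention (right) in percent for each of the 6 samples, with lines joining the DMSO and H3B-8800 sample of a culture. In each panel the left pair shows all read events and the right pair those with a mean level of 1 to 99%; over all read events the difference was -6.27 points for exons and 6.29 for introns.

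Single events were tested where the mean level over the 6 samples was between 1% and 99%, which left 110821 events. An event was called at a limma adjusted p under 0.05 and a mean difference of at least 10 percentage points. In all, 35544 events were called, 32.1% of those tested. Of 47375 tested exons 18857 were included less (39.8%) and 213 more (0.45%). Of 46051 tested introns 14911 were retained more (32.4%) and 164 less (0.356%). The last of these counts was 109 without culture b. The level filter can keep an event that is near 0% or 100% in DMSO because H3B-8800 moved it. Without it, 17.5% of 105873 exons were called less and 18.8% of 78991 introns more. These shares describe all exons with enough reads and the introns kept by the filter on balance.

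Most changes were partial. Called exons had a median level of 97.82% in DMSO and 69.11% in H3B-8800, and called introns one of 3.34% and 26.63%. A fall of at least 50 points was called for 2691 exons and one of at least 80 points for 85. A rise of at least 50 points was called for 1274 introns and one of at least 80 points for 10. Of 69486 read exons at 98% or more in DMSO, 45418 were still at 98% or more in H3B-8800. Of 69299 read introns under 5% in DMSO, 49865 remained under 5%.

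**Figure D2:**
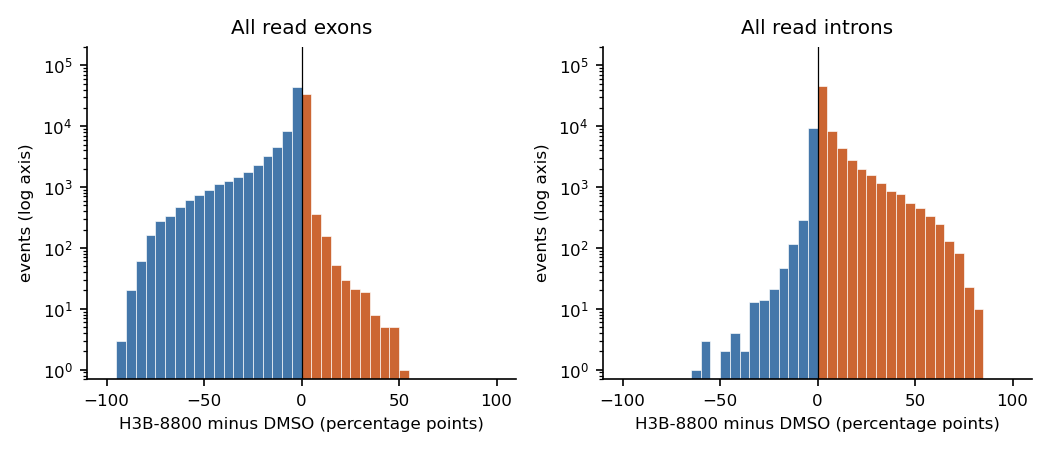
Number of read exons (left) and introns (right), on a log axis, by the mean difference of H3B-8800 minus DMSO in percentage points, in steps of 5 points with no change counted in the first step above 0. The exon distribution has its long side below 0 and the intron distribution its long side above 0; 2691 exons were called with a fall of at least 50 points and 1274 introns with a rise of at least 50.

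The 8 exons with the largest falls were 27 to 134 nt long. The exon of TRIM27, one of the 8, is shown with 5 exons of regulators of splicing, cell death and mitosis that are described below, in lower case with the last 3 bases, next to the 5' splice site, in capitals.
TRIM27 exon: aattaagagaggctcagttatactCAG
RBM5 exon: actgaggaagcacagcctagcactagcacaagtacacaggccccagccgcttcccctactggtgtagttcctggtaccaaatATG
TIA1 exon: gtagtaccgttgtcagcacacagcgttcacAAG
FAS exon: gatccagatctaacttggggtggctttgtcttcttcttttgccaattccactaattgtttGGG
AURKB exon: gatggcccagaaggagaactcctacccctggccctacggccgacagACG
MCL1 exon: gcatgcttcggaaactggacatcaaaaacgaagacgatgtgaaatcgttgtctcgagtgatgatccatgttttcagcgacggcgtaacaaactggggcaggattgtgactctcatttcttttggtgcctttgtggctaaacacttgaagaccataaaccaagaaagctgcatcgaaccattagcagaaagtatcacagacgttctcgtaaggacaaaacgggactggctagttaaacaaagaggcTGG

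The 27-nt exon of TRIM27 (chr6:28907236-28907262, minus strand), a RING-finger ubiquitin ligase, was included at 98.96%, 97.62% and 97.28% in DMSO and at 6.87%, 7.87% and 6.06% in H3B-8800, with at least 951 reads per sample (limma adjusted p = 0.00018). The 61-nt exon of MOSPD2 fell by 91.18 points, the 46-nt exon of IMPA1, an inositol monophosphatase, fell by 90.84 and the 108-nt exon of RCBTB2 fell by 89.76. The 27-nt exon of OSBPL7, an oxysterol-binding protein relative, fell by 89.45 points, and the 47-nt exon of DUSP11, a phosphatase acting on RNA, fell by 89.18. The 70-nt exon of RAD54L, a helicase of homologous recombination, fell by 89.16 points and the 134-nt exon of USP19, a ubiquitin protease, fell by 89.06. In all 8, which were chosen for the size of the fall, the treated samples were below 10% and the DMSO samples at 90% or above.

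The 8 introns with the largest rises, 1 per gene, were 100 to 5888 nt long. The 224-nt intron of PRPF40B, a relative of a U1 particle protein, was retained at 5.62%, 10.36% and 10.73% in DMSO and at 91.46%, 87.04% and 100% in H3B-8800, on as few as 26 reads. The 353-nt intron of ALKBH3, a DNA and RNA demethylase, stood at 4.74%, 3.12% and 6.16% against 89.15%, 85.0% and 87.18%, on at least 232 reads. The 583-nt intron of NEK8, a kinase of the primary cilium, rose by 83.09 points. The 100-nt intron of MED12, a Mediator subunit, rose by 81.75 points, the 154-nt intron of PWP2, a ribosome assembly factor, by 81.70, and the 1062-nt intron of PPP1R37 by 81.85. The 5888-nt intron of PCNT, a centrosome scaffold, rose by 81.92 points from a mean of 1.11%, and the 792-nt intron of NUDT18 by 80.73. The rule that named these introns asked for groups that do not overlap, so their separation is a description.

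A small share of exons and introns moved the other way. The 213 exons included more had a median of 13.33% in DMSO and 39.38% in H3B-8800, 92 were under 10% in DMSO, and 81 matched a GENCODE exon, against 16210 of the 18857 exons included less. An exon of PUS10, a pseudouridine synthase, was included at 31.22%, 39.91% and 30.97% in DMSO and at 79.54%, 91.01% and 92.11% in H3B-8800. The 46-nt exon of ULK4 rose by 48.21 points, an exon of ETV7, an ETS transcription factor, by 46.84, and the 46-nt exon of GTF2H3, a TFIIH subunit, by 46.08. Among introns retained less, that of RSRP1 fell from 82.08%, 82.28% and 85.27% to 15.97%, 22.77% and 20.84%. An intron of the splicing regulator MBNL1 fell by 58.51 points and an intron of FKBP14 fell by 59.85. These events too were chosen by size and for groups that do not overlap.

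The shares called were lower for alternative sites than for exons or introns. Among 9739 tested 3' sites, use rose at 638 (6.55%) and fell at 298 (3.06%), and among 7656 tested 5' sites it rose at 346 (4.52%) and fell at 117 (1.53%). Sites of an event share its reads, so a rise of one accompanies a fall of another. The lowest-numbered site of each event was left out, so rises and falls were not counted alike. With it included more falls were called, as given in the last section. In RPSA, with 2 named 5' sites, the higher-numbered site had the longer exon. Leaving out a site by its number can therefore favour a side of the most used site. The part of this in the counts by side below was not tested. Of the 3' sites used more whose position is given, 99 were already the most used site in DMSO, 481 lay upstream of that site and 33 downstream. Of those not called, 2806 lay upstream and 868 downstream. The median distance from the most used site was 62.5 nt for the 3' sites used more and 29 nt for those not called. Of the 5' sites used more, 277 lay downstream of the most used site and 6 upstream, with 3218 and 355 among those not called.

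The largest rise among alternative sites was in DNAJC8. The 3' site of this gene was used at 16.69%, 8.08% and 11.71% in DMSO and at 91.79%, 94.41% and 94.44% in H3B-8800, on 26 to 140 reads. A 3' site of DBF4, the activator of the replication kinase CDC7, rose by 77.60 points and one of EIF4A1, a translation initiation helicase, by 71.92. A 3' site of RBL1, a relative of the retinoblastoma protein, fell by 72.29 points. Among 5' sites, one of VIPAS39, a vesicle sorting protein, rose by 55.19 points, one of CDC16, a subunit of the anaphase-promoting complex, by 53.71, and one of ASXL1, a chromatin regulator, fell by 52.47.

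Shorter exons were called more often. Among read exons at 90% or more in DMSO, without the level filter, 31.9% of those up to 27 nt and 33.1% of those of 28 to 50 nt were included less, against 20.6% above 80 and up to 120 nt and 9.46% above 250 nt. The same order held for tested exons, from 52.4% at 28 to 50 nt to 27.4% above 250 nt. Coding exons with a length divisible by 3 were called in 16.9% of 27471 cases and others in 18.6% of 44423. Exon GC content, known for 99.9% of the tested exons in this class, gave 24.9% called at or under 35% GC and 17.8% to 19.9% in the 7 classes above. By the length of the upstream intron the share was 16.3% to 18.7% in the classes up to 5000 nt and 23.7% above 10000 nt. Over tested exons it was 42.6% above 10000 nt and 45.9% up to 150 nt, so the order by intron length turned with the filter.

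Longer introns were called less often. Without the level filter, 36.9% of introns up to 100 nt and 37.2% of those of 151 to 250 nt were retained more, against 16.5% above 1000 and up to 2000 nt and 4.58% above 5000 nt. Among introns at 1 to 5% in DMSO, the share went from 52.0% above 100 and up to 150 nt to 12.1% above 5000 nt. By the level in DMSO, without the filter, the share went from 3.41% of introns up to 0.5% to 61.9% at 10 to 20% and 60% at 20 to 50%, and was 31.8% above 50%. Base composition was not compared over all tested introns, because a sequence was at hand for 11.3% of them.

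**Figure D3:**
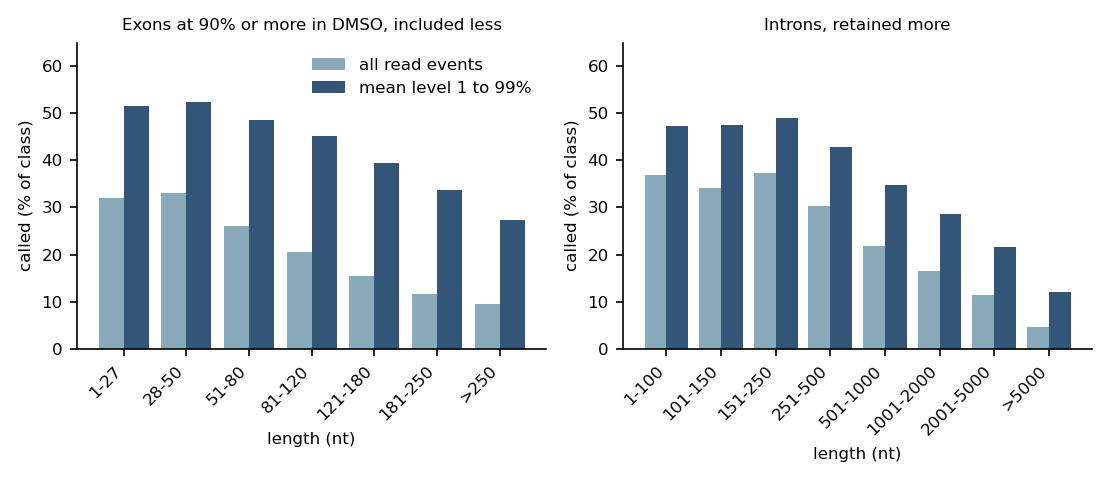
Share of events called, in percent of the class, for exons at 90% or more in DMSO included less (left) and introns retained more (right), by length in nucleotides. Light bars are all read events and dark bars those with a mean level of 1 to 99%; light bars go from 33.1% at 28 to 50 nt to 9.46% above 250 nt for exons, and from 37.2% at 151 to 250 nt to 4.58% above 5000 nt for introns.

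Skipping and retention were found together in some genes and apart in others. Of 9752 genes with a tested event, 7332 had a call (75.2%). Exons included less and introns retained more were both present in 3434 genes, exons less alone in 2613, introns more alone in 1139 and neither in 2566. Where an exon at 90% or more in DMSO had both flanking introns tested, the upstream intron was retained more beside 43.3% of 5602 exons included less and beside 40.3% of 5644 others. For the downstream intron the shares were 39.4% and 38.4%. Beside the 890 exons that fell by at least 50 points they were 36.2% and 32.7%. These pairs of events share junction reads, and their shares are a description.

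Within a gene the response varied from exon to exon. The shares per gene are of tested events. The level filter can keep an event because H3B-8800 moved it, so these shares do not describe all read events of a gene. Over all genes, 39.8% of tested exons were included less, and 17.4% of exons without the level filter. For introns retained more the shares were 32.4% and 18.8%. Among 1413 genes with at least 10 tested exons the median share included less was 41.7%, with quartiles of 30% and 55.6%. In USP34, a ubiquitin protease, 24 of 47 tested exons were included less, and in HERC2, a ubiquitin ligase, 22 of 44. All 10 tested exons were included less in ATG4B, an autophagy protease, and in POMT1, a protein mannosyltransferase. No exon was included less in 30 of these genes, among them MROH1 with 19 tested exons and PPP6R2, a phosphatase subunit, with 14. Among 1329 genes with at least 10 tested introns the median share retained more was 38.1%, with quartiles of 20% and 58.8%. In 82 of these no intron was retained more. The counts were 31 of 48 introns in NBEAL2, which is needed for platelet granules, and 28 of 32 in WDR90. In ACADVL, a mitochondrial fatty acid enzyme, 0 of 17 were.

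Genes often used as readouts of SF3B inhibition form a list of 12, and 9 of them had a called event, 75.0% against 75.2% of all genes. The list was chosen for responses reported for this class of compounds and is not independent evidence of direction. The 248-nt exon of MCL1 (chr1:150578244-150578491, minus strand), whose skipping removes part of the coding region of this survival protein, was included at 95.89%, 97.69% and 97.05% in DMSO and at 70.65%, 81.73% and 77.27% in H3B-8800, on at least 1977 reads. The change was -20.33 points (limma adjusted p = 0.000205). The 49-nt exon of AURKB (chr17:8210177-8210225, minus strand), a mitotic kinase, fell by 66.64 points. An intron of the chromatin reader BRD2 rose from 12.52%, 14.88% and 13.11% to 70.88%, 72.58% and 70.66%, and an intron of the G1/S cyclin CCNE1 by 66.12 points. The 90-nt exon of the kinase RIOK3 fell by 37.73 points. The events that changed most in DNAJB1, CDKN1B and XBP1 were not called, with differences of 3.63, 6.2 and -0.86 points.

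Apoptosis regulators had called events in 29 of 35 genes, 82.9% beside 75.2% of all genes. Exon inclusion in the list fell for 73 of 159 tested exons, 45.9% beside 39.8% of all, and intron retention rose for 33 of 116, 28.4% beside 32.4%. The 63-nt exon of the death receptor FAS (chr10:89010753-89010815, plus strand), which encodes the membrane-spanning part, was included at 82.76%, 86.85% and 91.32% in DMSO and at 11.49%, 11.08% and 11.47% in H3B-8800 (limma adjusted p = 0.000219). An intron of BCL2L2, a survival protein, was retained at 11.14%, 15.12% and 17.0% against 86.61%, 82.44% and 94.44%. A 3' site of BCL2L1, another survival protein, rose by 44.50 points and the 104-nt exon of the death promoter BCL2L11 fell by 46.21. An exon of BIRC6, an inhibitor of apoptosis, fell by 62.09 points. An exon of the kinase RIPK1 fell by 69.14 points, with treated samples spread over 10.34%, 35% and 27.54%. Treated and DMSO samples did not overlap in these events, which were mostly chosen for their size.

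**Figure D4:**
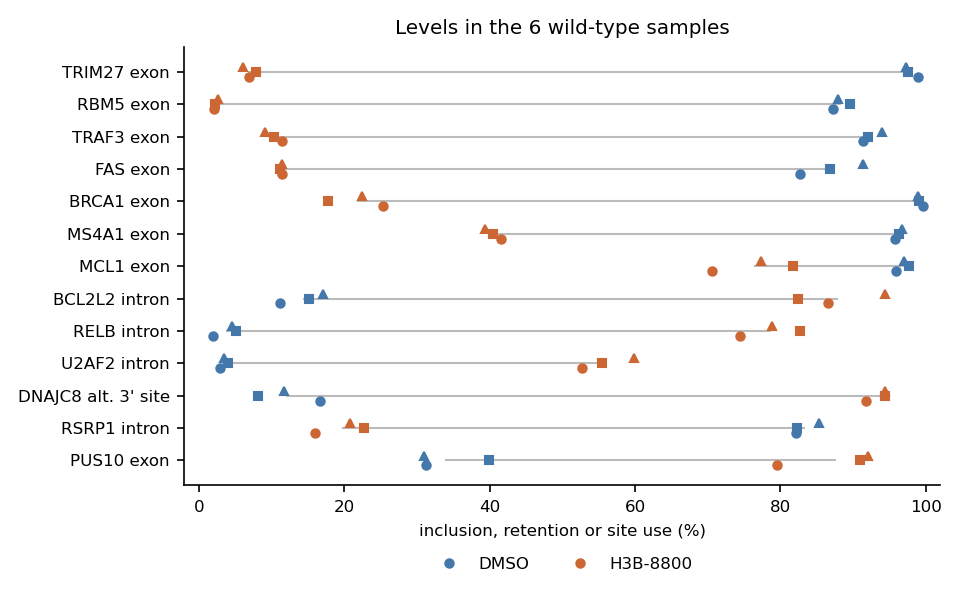
Level in percent of 13 named events in each of the 6 samples, with DMSO in blue, H3B-8800 in orange and a grey line joining the means; circles, squares and triangles mark cultures a, b and 34b. Exons of TRIM27 and RBM5 fell to under 10%, the MCL1 exon stayed above 70%, and the RSRP1 intron and PUS10 exon moved against the common direction.

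Genes of the splicing machinery held called events too. In the SF3B and U2 list 16 of 24 genes had a called event, 66.7% beside 75.2% of all genes, and without the level filter 6.16% of 292 exons were included less and 7.47% of 281 introns retained more, against 17.4% and 18.8% over all genes. The 44-nt exon of U2SURP, a U2-associated protein, was included at 98.22%, 98.03% and 97.02% in DMSO and at 31.06%, 26.19% and 22.33% in H3B-8800. An intron of U2AF2, which reads the pyrimidine tract, was retained at 2.85%, 4.06% and 3.4% against 52.65%, 55.42% and 59.91%. The 24-nt exon of PHF5A, a subunit of the SF3B complex, fell by 43.08 points, and an intron of CHERP rose by 46.25.

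The list of SR proteins, hnRNPs and the kinases that act on them held 40 genes with a called event of 49, 81.6% beside 75.2% of all genes. Of tested exons 41.6% were included less in this list, 33.6% in the spliceosome core and 36.0% among decay and export genes, beside 39.8% of all. Of tested introns 26.5%, 28.6% and 31.0% were retained more, beside 32.4%. Without the level filter the exon shares were 16.6%, 8.48% and 13.5%, beside 17.4%, so the SR list turned from above to below all genes. The intron shares were then 15.1%, 14.0% and 17.5%, beside 18.8%. The 85-nt exon of RBM5 (chr3:50110379-50110463, plus strand), a splicing regulator of cell death genes, was included at 87.26%, 89.61% and 87.92% in DMSO and at 2.13%, 2.21% and 2.59% in H3B-8800 (limma adjusted p = 0.00018). The 93-nt exon of the kinase SRPK2 fell by 80.85 points and the 33-nt exon of TIA1 (chr2:70229059-70229091, minus strand), a U1-recruiting protein, fell by 72.47. In the spliceosome core 41 of 66 genes had a call (62.1%), where the 63-nt exon of LUC7L fell by 71.31 points and introns of the helicases DDX41 and DHX38 rose by 57.96 and 57.56. Of nonsense-mediated decay and RNA export genes 26 of 32 had a call (81.2%), where an exon of the decay factor SMG5 fell by 73.42 points and an intron of the export factor THOC1 rose by 66.86.

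B cell genes were read against the 75.2% of all genes that had a called event. In the list of B cell markers 15 of 19 genes had a called event (78.9%), and in that of B cell receptor signalling 33 of 35 (94.3%). Per event, 40.4% and 41.1% of tested exons were included less, beside 39.8% of all, and 39.2% and 39.7% of tested introns were retained more, beside 32.4%. Without the level filter the exon shares were 20% and 15.8%, beside 17.4%. The 57-nt exon of MS4A1, which encodes CD20, was included at 95.78%, 96.29% and 96.78% in DMSO and at 41.54%, 40.41% and 39.29% in H3B-8800, on at least 9267 reads (limma adjusted p = 0.00018). The groups lay far apart. The 129-nt exon of the B cell transcription factor PAX5 fell by 60.24 points and the 69-nt exon of the adaptor BLNK, of the signalling list, fell by 58.04. The 27-nt exon of MALT1, a protease of NF-kappaB signalling, fell by 57.53 points, and an intron of the exchange factor VAV1 rose by 69.75. The 157-nt exon of EBF1, a B lineage factor, fell from 100% in each DMSO sample to 35.98%, 42.06% and 31.22%.

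The NF-kappaB and Toll-like receptor list had called events in 34 of 37 genes, 91.9% beside 75.2% of all genes. Of its tested exons 48.6% were included less, beside 39.8% of all, and of its tested introns 45.9% were retained more, beside 32.4%. The 81-nt exon of the adaptor TRAF3 was included at 91.4%, 92.05% and 93.96% in DMSO and at 11.4%, 10.37% and 9.1% in H3B-8800. Exons of both catalytic kinases upstream of NF-kappaB fell, where that of IKBKB fell by 77.99 points and that of CHUK fell by 74.89. Exons of 2 precursor subunits fell, where that of NFKB1 fell by 62.49 points and that of NFKB2 fell by 62.56.

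DNA repair and cell cycle genes were called at 42 of 49 (85.7%) and 49 of 56 (87.5%), beside 75.2% of all genes. Per event the shares were 41.8% and 40.9% of tested exons, beside 39.8% of all, and 31.1% and 32.9% of tested introns, beside 32.4%. Without the level filter they were 19.7% and 16.3% of exons, beside 17.4%, and 15.8% and 18.5% of introns, beside 18.8%. The 61-nt exon of BRCA1, a homologous recombination factor, was included at 99.62%, 99.04% and 98.88% in DMSO and at 25.35%, 17.78% and 22.47% in H3B-8800 (limma adjusted p = 0.000185). The 92-nt exon of the checkpoint kinase ATR fell by 68.38 points, and an intron of FANCA, a crosslink repair protein, rose by 64.89. The 44-nt exon of TOP2A, a topoisomerase, fell by 79.77 points, the 62-nt exon of CDC16 fell by 78.99 and the 103-nt exon of the centriole kinase PLK4 fell by 76.93.

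Of 67 ribosomal protein genes with a tested event 18 had a call, 26.9% beside 75.2% of all genes. Of 76 tested introns 1.32% were retained more, beside 32.4% of all, and of 18 tested exons 16.7% were included less, beside 39.8%. Without the level filter 1 of 266 introns was retained more (0.376%, beside 18.8% of all). Likewise 3 of 75 exons were included less (4.0%, beside 17.4%). The called events included a 3' site of RPS6, which rose from 31.3%, 28.92% and 25.29% to 77.01%, 80.69% and 72.88% on 148 to 565 reads. These genes have many near-identical copies, so their read numbers are uncertain.

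Spliced reads per gene were also compared. They are exon-exon junction reads at annotated introns, so retention and skipping can lower them, and they do not measure total RNA. A gene was called at a limma adjusted p under 0.05. Of 10067 genes 2937 had higher spliced reads (29.2%) and 5622 lower (55.8%), with a median change of -0.28 on the log2 scale. With each sample centred on its median gene, 4459 were higher and 3987 lower. RPM values are shares of a sample's own total, so a fall in many genes raises the share of the others. The part of this in the rises below was not tested. Cell number and RNA per cell cannot be read from such shares. All 78 ribosomal protein genes were higher, with a median of 0.46 and a range from 0.08 to 0.67, and 78 were higher after centring. By the median over a gene's introns and by spliced plus unspliced reads 77 were higher and 0 lower. The median was 0.35 for SR proteins, hnRNPs and their kinases, 0.23 for the spliceosome core and -0.58 for B cell receptor genes. After centring these medians were 0.67, 0.55 and -0.26. Centring raised the log2 change of every gene alike, with the median over all genes going from -0.28 to 0.04. A rise could therefore not turn into a fall, and only falls were put to a check by it.

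Among genes with a mean of at least 200 spliced reads, the largest rise was in OVGP1, an oviduct glycoprotein gene, which went from 0.909, 1.24 and 1.32 RPM in DMSO to 31.8, 43.1 and 43.8 RPM in H3B-8800. The snoRNA host gene SNHG1 rose from 174.6, 180.5 and 160.4 RPM to 915.4, 981.7 and 904, a log2 change of 2.44 ± 0.04 (SE). CCDC81 rose by 3.26, PHKG1 by 3.04 and CFAP45 by 2.82 on the log2 scale, and the kinase gene PIM1 by 1.72. Spliced reads of SF3B1, the gene of the drug's target, went from 1028, 1006 and 1070 RPM to 1770, 1724 and 1836, a log2 change of 0.78 ± 0.03 (SE). The core genes PRPF39, of the U1 particle, and PRPF38B rose by 1.52 and 1.43, and the SR-related gene SRRM1 by 1.38. Other genes of these lists fell, HNRNPU by 1.42 and U2SURP by 1.33. Of 70 core genes 42 were higher and 20 lower, and of 51 in the SR list 33 and 15. Of 24 genes in the SF3B and U2 list 11 were higher and 9 lower. Over all genes 29.2% were higher and 55.8% lower. The treated samples lay above all DMSO samples in OVGP1, SNHG1 and SF3B1.

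Among the same genes the largest fall was in KCTD13, an adaptor of a ubiquitin ligase, from 6.57, 8.01 and 9.48 RPM to 0.291, 0.451 and 0.282 RPM, a log2 change of -4.57 ± 0.20 (SE). TRMT61B, a mitochondrial tRNA methyltransferase, fell by 4.50, SNX22, a sorting nexin, fell by 4.48 and MRM1, a mitochondrial rRNA methyltransferase, fell by 4.45. TRAPPC4, a vesicle tethering protein, fell from 70.1, 70.1 and 69.5 RPM to 6.55, 5.68 and 5.49. Of 21 B cell markers 5 were higher, MS4A1 and PAX5 among them, and 14 lower, and after centring 8 and 11. Of 36 B cell receptor signalling genes 8 were higher and 25 lower, and after centring 11 and 19. Over all 10067 genes 29.2% were higher and 55.8% lower, and after centring 4459 genes were higher and 3987 lower. Among the B cell markers CD40, a co-stimulatory receptor, fell by 2.52. Its DMSO samples were at 71.4, 62.9 and 60.2 RPM and its treated samples at 13.9, 10.6 and 9.67. DOK3, an inhibitory adaptor, fell by 2.31 and the tyrosine kinase gene SYK by 1.44. The death receptor gene FAS rose by 1.29, while BCL2L2 fell by 2.19. The log2 change of MCL1 spliced reads was 0.17 with overlapping groups, and its limma adjusted p of 0.0119 became 0.099 without the block and 0.173 without culture b. Centring, which raised every change alike, left each fall named here a fall.

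**Figure D5:**
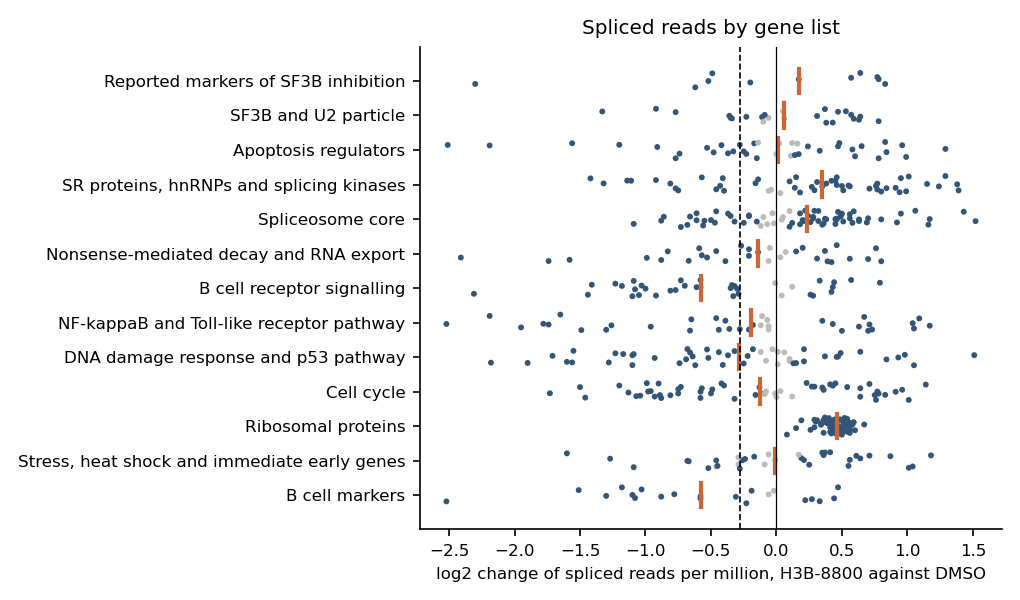
Log2 change of spliced reads (RPM) for each gene of 13 lists, H3B-8800 against DMSO, with called genes dark and others grey, the orange bar at the list's median and the dashed line at the median of all genes (-0.28). The 78 ribosomal protein genes sit between 0.08 and 0.67, and the median of B cell receptor genes is at -0.58.

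The effect in WT was set beside that in K700E, which shares no sample with it. Over 46277 exons read and tested in all 12 samples the mean change was -13.79 points in WT and -12.94 in K700E, and over 45188 introns it was 10.3 and 9.93 points. Across events the changes in both genotypes had a Pearson r of 0.96 for exons and 0.96 for introns, a description in which events share libraries and the level filter. The difference of the effects was called for 0 of 109076 events (0.0%) with limma and the block, with a smallest adjusted p of 0.335, while 8313 had an unadjusted p under 0.05. Without the block 10 were called. The largest of these was an intron of LTN1, a ribosome quality control ligase, whose retention rose by 56.71 points in WT and by 11.4 in K700E. In 95.9% of events the changes in WT and K700E differed by less than 10 points.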

How the data were processed

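Poly(A)-selected, stranded libraries of 12 MEC1 samples, 4 groups of 3, were sequenced in 3 runs each, per the labels. Trimming with cutadapt 2.4 and the build hg38 come from the submitters' processing notes; which aligner and event caller were used is not stated in the labels, and the layout is that of a vast-tools table. The authors deposited each event's level as a percent per sample, with a text column of other values that holds the inclusion and exclusion reads. Another 36 columns of single runs were not used.

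Of events with at least 20 reads in all 6 WT samples, those with a mean level of 1 to 99% were tested. Introns with unbalanced junctions (deposited p under 0.05) in more than 3 samples were left out, as was site number 1 of alternative events. The log2 ratio of inclusion to exclusion reads, each plus 0.5, was modelled in limma 3.58.1 (R 4.3.3) with a trend on read number and a replicate block for the culture. The pairing comes from the suffix of the sample names. Same-culture samples deviated together only weakly, with correlations of 0.069, 0.0153 and 0.0349 for a, b and 34b, and the block was kept because the comparison is defined by suffix. Spliced reads per gene (mean of at least 50) were modelled as log2 RPM with 0.5 reads added. P-values were Benjamini-Hochberg adjusted over all features tested, and both models were tested on simulated data. Annotation and sequences came from GENCODE release 29.

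The comparison and the 16 gene lists were chosen with earlier results of these data known. Named events were, per type and direction, the 8 called events of largest difference with 3 pairs in 1 direction and no overlap, 1 per gene, up to 6 genes per list, and MCL1, BCL2L1, BCL2L2, BCL2L11, FAS and all reported markers of SF3B inhibition with their most changed event. Genes named for spliced reads were the 10 largest rises and falls with a mean of at least 200 reads, up to 4 per list, and SF3B1. The text describes a selection of these. A few items are not reported here. The printed introns, LTN1 and the genes named for their share of called events were chosen after their values were seen. Of 16 lists, those of T and NK cell, myeloid, and fibroblast and epithelial markers had called events in 2 of 3, 0 of 0 and 1 of 3 tested genes. The stress and heat shock list had them in 10 of 30 (33.3%), beside 75.2% of all genes. Alternatives covered the block, samples, filters, offsets, scale and weights.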

Additional observations from a re-analysis of the deposited data

How the results depend on the processing

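Under no replicate block in place of the paired fit, the count of exons included less was 18960 and that of introns retained more 14960, and 10 events in place of 0 differed in effect between K700E and WT. It changed no other count by more than 1.5 times. With site number 1 included, the count of alternative 3' sites used less was 747 and that of alternative 5' sites used less 413. With no filter on the level, the mean change was -6.27 points for exons and 6.29 for introns, against -13.76 and 10.57 over tested events. Leaving out 1 culture or 1 sample gave counts of introns retained less from 109, without culture b, to 198; the range for whole cultures was 109 to 139. Centred on the median gene, 4459 genes had higher spliced reads and 3987 lower. The direction turned for REPIN1 with spliced plus unspliced reads (a log2 change of 1.10) and, centred, for RIOK3 (0.12) and TRAC (0.07). The cause of these changes was not tested. Of the 144 named events 2 lost their call under some alternative, and of the 85 named genes 5. Most were picked for large called changes, so these counts do not describe calls in general. The events of DNAJB1, CDKN1B and XBP1 had no call to lose. With at least 50 reads in all 6 samples, 109 of the 144 events could be compared. Leaving out 1 WT sample at a time with no replicate block was chosen after seeing the data. Read numbers limit single events, some of which rest on fewer than 30 reads in a sample.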
